A study of Mus musculus with 20 samples.

Results

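*Ihh*, *Ptch1*, *Smo*, *Gli1*, *Gli2*, *Gli3*, *Hhip*, *Pthlh* and *Pth1r* are the genes of the loop between Indian hedgehog and parathyroid hormone-related protein (PTHrP). They were taken by name from the table of read counts, with earlier results of these data known, and they are 9 of its 54532 genes. The counts came from RNA-seq of the mouse temporomandibular joint (TMJ), which joins the lower jaw to the skull. The condylar head was sampled together with some of the bone under its cartilage. All 20 libraries came from mice that carried *Acan-Cre* and both floxed copies of *Loxl2*, a lysyl oxidase-like enzyme that crosslinks collagen. In these mice a tamoxifen-inducible Cre recombinase is driven from the aggrecan locus, which is active in cartilage cells. The 8 control libraries were from vehicle-treated mice and the 12 *Loxl2* knockout libraries from tamoxifen-treated mice, with injections from 6 months of age, and tissue was taken 4 months later. Both groups therefore share the Cre and floxed alleles, and the drug and the deletion cannot be told apart.

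Indian hedgehog (*Ihh*) is secreted by chondrocytes that are about to become hypertrophic. It binds Patched (*Ptch1*), which otherwise holds Smoothened (*Smo*) inactive, and the released signal reaches the Gli transcription factors (*Gli1*, *Gli2*, *Gli3*). Hedgehog-interacting protein (*Hhip*) is a membrane decoy that binds the ligand. *Ptch1*, *Gli1* and *Hhip* are themselves induced by the signal and are commonly read as its output. In the growth plate and in the condylar cartilage, Ihh raises PTHrP (*Pthlh*), which acts on its receptor (*Pth1r*) and holds back hypertrophy. The receptor is also abundant in osteoblasts and osteocytes, where parathyroid hormone uses it.

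Libraries held 11153820 to 27045668 counts in genes. Expression is given below as CPM, the count of a gene relative to the total of its library after scaling by the trimmed mean of M-values, and differences as log2 fold changes of knockout over control from the edgeR quasi-likelihood test over 15984 genes, with Benjamini-Hochberg adjusted p and a threshold of 0.05. *Loxl2* itself showed no lower level where the label is knockout, at 64.5 ± 30.9 CPM in control (SD, n = 8) and 101 ± 26.9 CPM in knockout (SD, n = 12), with a log2 fold change of 0.64 (SE 0.28, adjusted p = 0.101, edgeR). These counts cover the whole gene in the whole tissue, so they do not show whether the floxed part was deleted in cartilage cells, and knockout is used here as the name of the labelled group. Control replicates 6 and 8 stood apart, with the lowest mean log2 levels of the cartilage and the bone-forming marker lists among the controls. Knockout replicate 5 had the lowest levels of both lists in its own group, at 3.38 and 5.17. These were near the 3.11 and 4.97 of control replicate 6. Control replicates 1 and 2 stood apart in markers of keratinocytes, the cells of surface epithelium. The 7 genes of that list summed to 135 and 103 CPM there and to 8.11 to 21.1 CPM in the other controls, and to 4.79 to 108 CPM in knockout. The calls given below were refitted without each of these pairs, a choice made after the values were seen. Chondrocyte markers were present (*Acan*, *Col2a1* and *Comp* were counted in all 20 libraries), whereas *Matn1* had no count in any control library and at most 2 counts in a knockout library. The tissue also held much muscle, since 11 skeletal muscle genes summed to 53573 to 190601 CPM in control and 37890 to 98643 CPM in knockout. In such bulk tissue, fewer cells of a type and less RNA per cell cannot be told apart.

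To show where the members that differed between the groups begin, the bases just upstream of their transcription starts are printed here, 5′ to 3′, with each CpG in capitals. RefSeq windows on GRCm38.p6 (250 bases before to 50 after a start) were found for 8 of the 9 genes. *Smo* has a single start, and its upstream bases lie at chr6:29735347-29735496 on the plus strand. *Pth1r* has 3 starts on the minus strand of chromosome 9, and the bases before the most upstream one (chr9:110747146-110747295) and before the next one, 3459 bases further along the gene (chr9:110743687-110743836), are shown.
Smo: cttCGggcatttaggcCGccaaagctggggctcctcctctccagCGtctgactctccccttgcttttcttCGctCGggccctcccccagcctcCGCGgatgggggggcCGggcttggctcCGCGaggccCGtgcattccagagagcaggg
Pth1r, most upstream start: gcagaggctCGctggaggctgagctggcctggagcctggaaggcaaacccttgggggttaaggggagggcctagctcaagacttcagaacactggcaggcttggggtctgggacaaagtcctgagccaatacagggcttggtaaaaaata
Pth1r, next start: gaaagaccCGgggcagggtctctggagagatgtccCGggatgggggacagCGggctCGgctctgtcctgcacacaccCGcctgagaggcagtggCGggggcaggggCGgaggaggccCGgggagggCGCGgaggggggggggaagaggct
The most upstream *Pth1r* window held 5 CpG in 300 bases and was 54.3% G and C, while the others held 23 and 27 CpG at 68% and 69.3%. The *Smo* window held 17 CpG at 67.7%. Over all 32851 windows the medians were 7 CpG and 52.7%. The table counts reads per gene, so which *Pth1r* start was used is not given by these data.

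The windows were also searched on both strands for the Gli consensus (GACCACCCA) and the cAMP response element (TGACGTCA), the latter because PTHrP signals through cAMP. The Gli consensus was in none of the 10 windows of the 8 genes and in 0.253% of all windows. The cAMP response element was in 1.79% of all windows and in 1 of the 10, that of *Hhip*. It begins 75 bases before the *Hhip* start, within chr8:80058056-80058103 on the minus strand, and is in capitals here.
Hhip: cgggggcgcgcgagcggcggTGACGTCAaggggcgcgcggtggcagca
A match in these letters is a description of the window only.

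Of the 9 genes, 2 passed the threshold, and both were higher in knockout. These were the receptor *Pth1r* and the signal transducer *Smo*. None was lower. Across all genes tested, 23.0% passed in either direction, 12.0% were higher and 11% were lower, so 2 of 9 is close to the background share. The median log2 fold change was 0.20 over the 9 genes and -0.02 over all genes tested. The ranges of the groups overlapped for every one of the 9, and the share of all genes tested without overlap is not given here. None of the 9 passed once control replicates 6 and 8 were left out, in a fit where 1703 of 16551 genes passed. Knockout replicate 5, which was low in the same marker lists, stayed in that fit. Without knockout replicate 5 alone, 4181 of 15912 genes passed and 3 of the 9 did, *Smo*, *Gli3* and *Pth1r*. Without control replicates 1 and 2, where 3944 of 16321 genes passed, 3 of the 9 did, *Smo*, *Gli3* and *Pthlh*, and *Pth1r* did not.

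**Figure D1:**
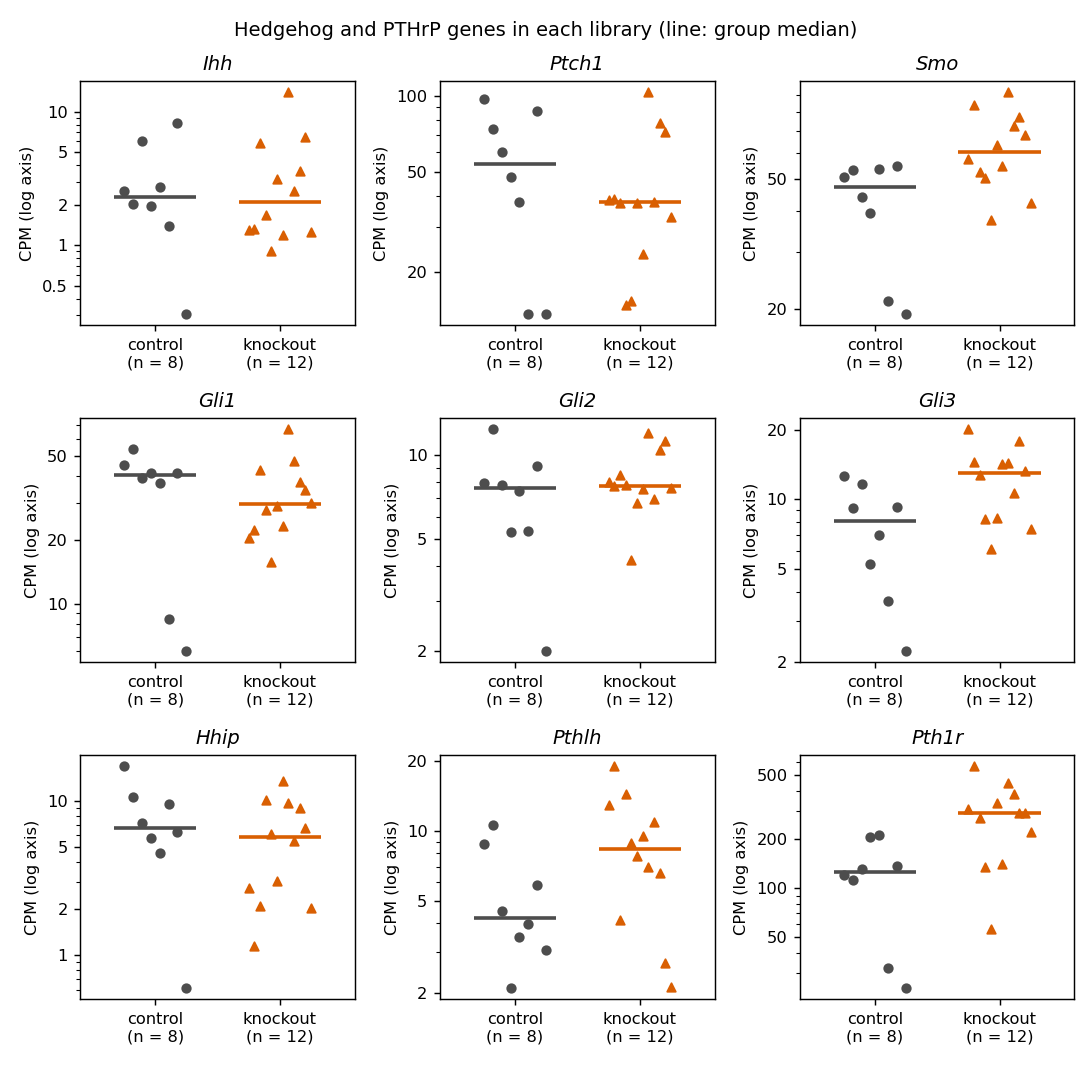
Expression of the 9 genes in each library, in CPM on a log axis, with 1 point per library (circles, 8 control; triangles, 12 knockout) and a line at the group median. *Pth1r* and *Smo* have 9 and 7 knockout libraries above the highest control library, and 2 control libraries lie far below the others for *Gli1*, *Smo* and *Pth1r*.

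Per kilobase of exon, *Pth1r* was the most abundant of the 9, and *Ihh*, *Gli2*, *Gli3* and *Hhip* were the lowest. The means in control were 41.8 CPM per kb for *Pth1r*, 7.47 for *Smo*, 6.83 for *Gli1*, 3.79 for *Ptch1* and 3.27 for *Pthlh*. *Ihh* and *Gli2* were both at 1.04, *Hhip* at 0.84 and *Gli3* at 0.79 CPM per kb. In knockout the receptor rose to 98.3 and *Smo* to 11.1, with *Gli1* at 6.64, *Pthlh* at 5.45 and *Ptch1* at 3.11. The lowest 4 in knockout were *Gli3* at 1.28, *Gli2* at 1.20, *Ihh* at 1.18 and *Hhip* at 0.66 CPM per kb. Since libraries of 1 group differed by more than these gaps, the order among *Ihh*, *Gli2*, *Hhip* and *Gli3* is not separated by the spread.

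The first question was whether the ligands of the loop differed. *Ihh* (ENSMUSG00000006538, chr1:74945315-74951672, minus strand) ran from 0.306 through a median of 2.29 to 8.22 CPM in control and from 0.900 through 2.11 to 14.0 CPM in knockout. The medians lay close together and 11 of 12 knockout libraries fell within the control range. Its log2 fold change was 0.17 (SE 0.54, adjusted p = 0.850, edgeR), and the coefficient of variation between libraries was 83.5% in control and 104% in knockout, the widest of the 9 genes in both groups. The counts behind *Ihh* were small, from 4 to 127 per control library and 16 to 191 per knockout library. Knockout replicate 8 held the highest level, and without it the log2 fold change was -0.26. It was -0.15 (SE 0.54) without control replicates 6 and 8 and 0.03 (SE 0.61) without control replicates 1 and 2.

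*Pthlh* (ENSMUSG00000048776, chr6:147252101-147264183, minus strand) encodes PTHrP. It ran from 2.09 through 4.22 to 10.6 CPM in control and from 2.12 through 8.33 to 19.0 CPM in knockout. The knockout median was higher, 9 of 12 knockout libraries lay above the control median, and 4 lay above all controls. The log2 fold change was 0.74 (SE 0.37, adjusted p = 0.15, edgeR), which did not pass, and the exact permutation test over 125970 assignments of the libraries gave p = 0.113. With the 16 libraries numbered 1 to 8 alone it was 0.98 (adjusted p = 0.0492), in a fit that leaves out 4 knockout libraries, among them the 2 lowest. Control replicates 6 and 8, low for most members, were not the lowest for *Pthlh*, at 3.94 and 3.06 CPM, and without them the log2 fold change was 0.58 (SE 0.41, adjusted p = 0.378). It passed without control replicates 1 and 2, at 1.20 (SE 0.38, adjusted p = 0.0295, edgeR).

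The receptors came next. *Pth1r* (ENSMUSG00000032492, chr9:110722085-110747145, minus strand, 18 exonic blocks) showed the largest log2 fold change of the 9 genes. It ran from 24.0 through 126 to 214 CPM in control and from 56.2 through 292 to 566 CPM in knockout. Of the 12 knockout libraries, 11 lay above the control median and 9 above the highest control, and the remaining 3 lay within the control range. The means were 122 ± 69.3 CPM in control (SD, n = 8) and 287 ± 141 CPM in knockout (SD, n = 12). The log2 fold change was 1.23 (SE 0.40, adjusted p = 0.029, edgeR), a fold of 2.35, and the exact permutation test gave p = 0.00865. The call was lost without control replicate 6 (adjusted p = 0.0521), without control replicate 8 (adjusted p = 0.0505) and without knockout replicate 2 (adjusted p = 0.0520), and it held when any of the other 17 libraries was left out. Without both of these controls the log2 fold change was 0.89 (SE 0.34, adjusted p = 0.0948), and without control replicates 1 and 2 it was 1.19 (SE 0.46, adjusted p = 0.0641).

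*Pth1r* shares 95 exonic bases with *Myl3*, a myosin light chain gene on the opposite strand, and whether counting used strand is not given in the sources used here. *Myl3* was at 2.98 ± 2.26 CPM in control (SD, n = 8) and 1.6 ± 0.86 CPM in knockout (SD, n = 12), far below *Pth1r* in both groups.

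*Ptch1* (ENSMUSG00000021466, chr13:63508328-63573598, minus strand) is both the Ihh receptor and a target of the signal. It ran from 13.6 through 53.6 to 96.7 CPM in control and from 14.7 through 37.7 to 103 CPM in knockout. The knockout median was the lower one, and 9 of 12 knockout libraries lay below the control median, but the ranges nearly coincided. The log2 fold change was -0.29 (SE 0.38, adjusted p = 0.616, edgeR). Its sign was negative in 35 of 36 alternative fits, and the exception was 0.01 (SE 0.42) without control replicates 1 and 2. Leaving out control replicates 6 and 8 gave -0.62 (SE 0.34, adjusted p = 0.244). It passed in 2 of those fits, both with a marker list as a covariate, as given below.

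*Smo* (ENSMUSG00000001761, chr6:29735503-29761365, plus strand) ran from 19.4 through 47.4 to 54.6 CPM in control and from 37.6 through 60.4 to 91.8 CPM in knockout. Of the 12 knockout libraries, 10 lay above the control median and 7 above the highest control. The means were 42.0 ± 14.4 CPM in control (SD, n = 8) and 62.6 ± 16.6 CPM in knockout (SD, n = 12). The log2 fold change was 0.58 (SE 0.20, adjusted p = 0.044, edgeR), a fold of 1.49, and the exact permutation test gave p = 0.00893. This call lay close to the threshold, since it held in 8 of 20 leave-one-out fits, with log2 fold changes of 0.48 to 0.64 and adjusted p of 0.0238 to 0.0822. The call was lost without control replicate 3, 4, 6 or 8, and without knockout replicate 1, 2, 6, 7, 8, 9, 10 or 11. Without control replicates 6 and 8, which held the lowest *Smo* levels at 21.2 and 19.4 CPM, the log2 fold change was 0.34 (SE 0.16, adjusted p = 0.177). Without control replicates 1 and 2 it was 0.68 (SE 0.22, adjusted p = 0.0344).

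None of the Gli factors passed, and *Gli3* came closest. *Gli3* (ENSMUSG00000021318, chr13:15463235-15730026, plus strand), which in the absence of ligand is processed to the main repressor of hedgehog targets, ran from 2.22 through 8.08 to 12.6 CPM in control. In knockout it ran from 6.13 through 13.0 to 20.1 CPM, with 10 of 12 libraries above the control median and 7 above all controls. This gave a log2 fold change of 0.69 (SE 0.28, adjusted p = 0.0766, edgeR), which did not pass, although the single-gene exact permutation test gave p = 0.0159. It passed with the DESeq2 Wald test (adjusted p = 0.0492), without control replicate 1 (adjusted p = 0.0382), without knockout replicate 5 (adjusted p = 0.0462) and without control replicates 1 and 2 (0.90, SE 0.30, adjusted p = 0.0370). Without control replicates 6 and 8 the log2 fold change was 0.41 (adjusted p = 0.265).

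*Gli2* (ENSMUSG00000048402, chr1:118834132-119053619, minus strand), the main activator at the start of signalling, ran from 1.99 through 7.60 to 12.3 CPM in control and from 4.22 through 7.76 to 11.9 CPM in knockout. All 12 knockout libraries lay within the control range. Its log2 fold change was 0.20 (SE 0.23, adjusted p = 0.572, edgeR), and -0.03 (SE 0.19) without control replicates 6 and 8. *Gli1* (ENSMUSG00000025407, chr10:127329882-127341974, minus strand), an activator and a target of the signal, ran from 5.97 through 40.4 to 53.7 CPM in control and from 15.8 through 29.5 to 66.8 CPM in knockout. The knockout median lay below the control median, with 9 of 12 knockout libraries under it, whereas the means were nearly equal at 34.1 ± 17.3 CPM (SD, n = 8) and 33.1 ± 14.1 CPM (SD, n = 12). The mean was held down by control replicates 6 and 8, at 8.43 and 5.97 CPM, while the other 6 controls lay between 37.4 and 53.7 CPM. The log2 fold change was -0.05 (SE 0.33, adjusted p = 0.936, edgeR) with all libraries and -0.39 (SE 0.22, adjusted p = 0.269) without those controls. *Gli1* shares 62 exonic bases with *Arhgap9* and 265 with an antisense gene, and *Gli3* shares 188 with an opposite-strand transcript.

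*Hhip* (ENSMUSG00000064325, chr8:79965851-80058006, minus strand) ran from 0.612 through 6.70 to 16.7 CPM in control and from 1.16 through 5.79 to 13.5 CPM in knockout. All 12 knockout libraries lay within the control range, and the log2 fold change was -0.36 (SE 0.45, adjusted p = 0.591, edgeR), and -0.52 (SE 0.43) without control replicates 6 and 8. It shares 175 exonic bases with a small RNA gene on the opposite strand. Thus none of the 3 target genes *Ptch1*, *Gli1* and *Hhip* passed in this fit, and all 3 had negative log2 fold changes. In mean log2 CPM, *Gli1* was instead 0.17 higher in knockout (p = 0.685, exact permutation). *Ptch1* differed there by -0.20 (p = 0.650) and *Hhip* by -0.30 (p = 0.591, both exact permutation). In the edgeR fit with library totals alone as the scaling, *Gli1* turned to 0.04. Without control replicates 1 and 2 all 3 turned positive, at 0.01 for *Ptch1*, 0.17 for *Gli1* and 0.07 for *Hhip*, and none passed.

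Ratios of counts within a library do not depend on library scaling, and they are given as a description chosen after the values were seen. *Gli1* had 0.308 to 1.06 counts for each *Smo* count in control (median 0.824) and 0.265 to 0.816 in knockout (median 0.497). *Ptch1* had 0.641 to 1.91 for each *Smo* count in control (median 1.28) and 0.292 to 1.13 in knockout (median 0.631). *Hhip* had 0.0316 to 0.448 for each *Smo* count in control (median 0.154) and 0.0138 to 0.247 in knockout (median 0.0869). The 3 target-to-*Smo* ratios were thus lower at the median in knockout, with overlapping ranges. They share *Smo* as denominator, which was itself called higher in knockout. They therefore restate the values above and are not 3 separate results. *Gli1* had 0.441 to 0.993 counts for each *Ptch1* count in control (median 0.641) and 0.481 to 1.88 in knockout (median 0.844), with the higher median in knockout. *Gli3* had 0.688 to 1.59 counts for each *Gli2* count in control (median 1.01) and 0.974 to 2.52 in knockout (median 1.48). *Pth1r* had 7.85 to 98.6 counts for each *Pthlh* count in control (median 18.7) and 6.32 to 109 in knockout (median 39.1).

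Markers of other cell types moved with the groups. Lists were scored as the mean log2 CPM of their tested genes in each library, and groups were compared with a two-sided exact permutation test, adjusted over 11 lists. The osteoclast list was 2.37 higher in knockout (adjusted p = 0.00175, exact permutation). All 10 of its genes were higher in the fit over all genes, in which 12.0% were higher and 11% lower. The summed level of this list was 183 to 1485 CPM in control and 665 to 8093 CPM in knockout. The osteoblast and osteocyte list was 1.56 higher (adjusted p = 0.0193, exact permutation), with 7 of 12 genes higher, and its summed level was 2167 to 20963 CPM in control and 6978 to 60044 CPM in knockout. *Sost* was at 0 in at least 1 control library. The tendon and ligament list was 0.51 higher (adjusted p = 0.0143, exact permutation). Without control replicates 6 and 8 the osteoclast list was 2.10 higher (adjusted p = 0.0113, exact permutation), while the osteoblast and osteocyte list differed by 1.01 and the tendon and ligament list by 0.29, each with adjusted p = 0.111 (exact permutation).

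The chondrocyte list, summing to 242 to 3454 CPM in control and 2170 to 6265 CPM in knockout, differed by 0.69 (adjusted p = 0.343, exact permutation). Of its 15 tested genes 3 were higher and 1 was lower, beside 12.0% higher and 11% lower over all genes. Its difference was -0.04 without control replicates 6 and 8 (adjusted p = 0.914, exact permutation). The skeletal muscle list differed by -0.71 and the neutrophil list by 1.95, each with adjusted p = 0.081. The endothelial list (-0.17), Schwann cell list (-0.21), adipocyte list (-0.48), keratinocyte list (-0.24) and salivary gland list (0.58) had adjusted p from 0.343 to 0.832. The keratinocyte and salivary gland scores rest on only 2 tested genes each, of 7 and of 6. The keratinocyte score thus leaves out most of the list whose summed CPM is given above. The part of these cell types in the values of *Pth1r*, *Smo* and the other members was examined as far as a covariate allows, by adding 1 list score at a time to the fit.

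With the osteoblast and osteocyte score in the fit, the log2 fold change of *Pth1r* was -0.09 (SE 0.22, adjusted p = 0.877) and that of *Smo* 0.04 (SE 0.14, adjusted p = 0.922). *Ptch1* then fell to -1.39 (SE 0.34, adjusted p = 0.0423), and 263 genes passed. With the chondrocyte score, *Pth1r* was 0.93 and *Smo* 0.39, both still past the threshold, and *Ptch1* was -0.78 (SE 0.21, adjusted p = 0.0166). With the osteoclast score *Pth1r* was 0.02 (SE 0.53), *Smo* was -0.08 (SE 0.25) and *Ptch1* was -0.83 (SE 0.63). No gene of the 15984 passed in that fit (edgeR), while 1299 had an unadjusted p under 0.05. With the skeletal muscle score *Pth1r* was 0.72 (SE 0.43, adjusted p = 0.312), *Smo* 0.28 (SE 0.19, adjusted p = 0.379) and *Ptch1* -0.76 (SE 0.40, adjusted p = 0.242). The osteoclast and the osteoblast and osteocyte scores differed between the groups, so as covariates they remove part of any group difference, and composition and knockout cannot be told apart in this way.

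**Figure D2:**
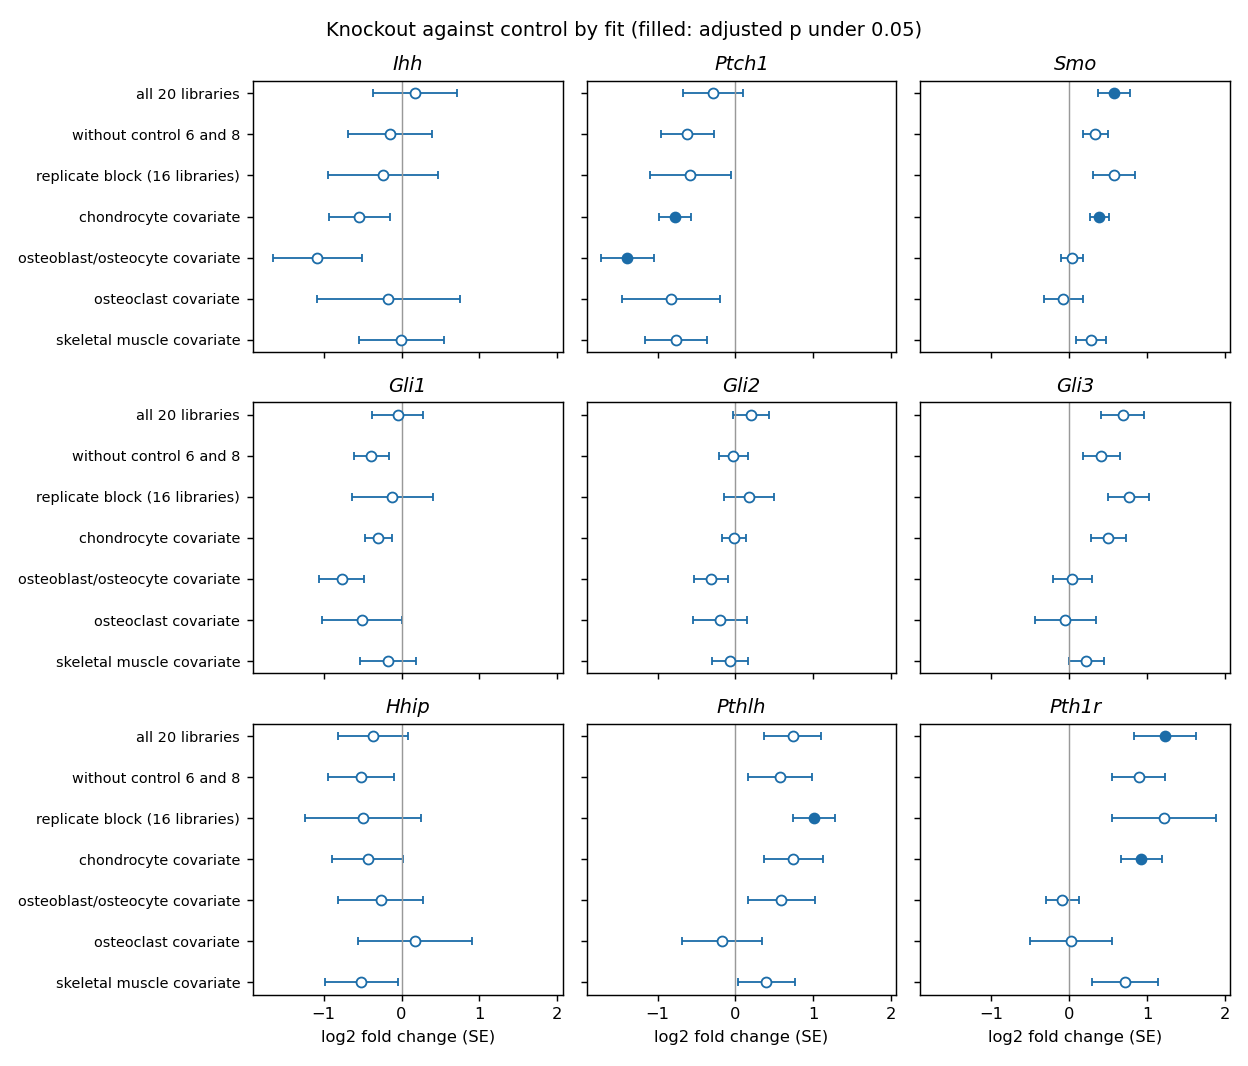
Log2 fold change of knockout over control for each gene (point) with its standard error (bar) in the fit with all 20 libraries and in 6 alternatives, filled where adjusted p was under 0.05. *Pth1r* and *Smo* lie near 0 once the osteoblast and osteocyte or the osteoclast score is in the fit. *Ptch1* lies further below 0 in all 6 alternatives, and is filled with the osteoblast and osteocyte and with the chondrocyte score.

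**Figure D3:**
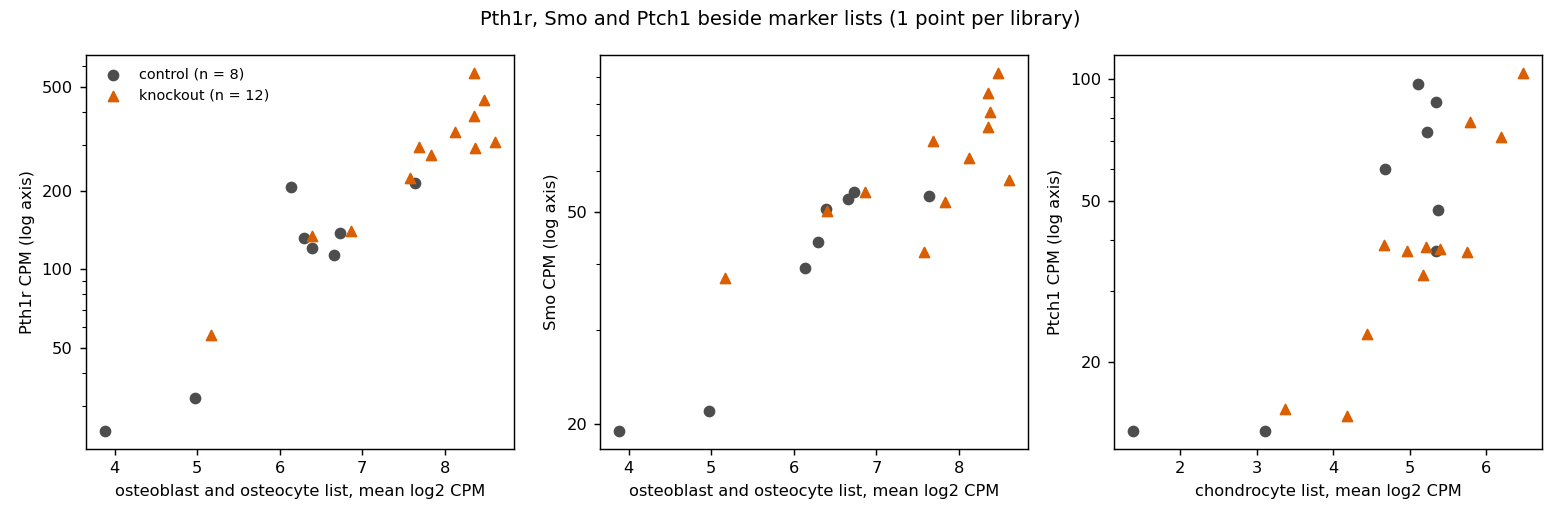
*Pth1r* and *Smo* (CPM, log axis) against the osteoblast and osteocyte score, and *Ptch1* against the chondrocyte score (mean log2 CPM), 1 point per library (circles, control; triangles, knockout). *Pth1r* rises along the score in both groups, and the lowest library on every panel is control replicate 6 or 8.

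The other genes of both pathways were taken by role. Of 85 distinct genes, 79 were tested and 23 passed, 10 higher and 13 lower. This is 29.1% of those tested, beside 23.0% of all genes, of which 12.0% were higher and 11% lower. Once control replicates 6 and 8 were left out, 1703 of all 16551 genes tested passed, and 5 of the pathway genes. Of these, *Scube3*, *Ift172*, *Foxc2* and *Mmp13* belong to the 23, and *Gpc3*, a glypican that binds the ligand, was added in that fit (-1.14, SE 0.36, adjusted p = 0.0490). Without control replicates 1 and 2 instead, 24 pathway genes and 3944 of all 16321 genes passed. Of the 23, *Hhat* (adjusted p = 0.0686), *Scube3* (adjusted p = 0.960), *Btrc* (adjusted p = 0.0550) and *Gna11* (adjusted p = 0.0843) no longer passed (edgeR). Added in that fit were *Scube2* (0.87, adjusted p = 0.0227), *Kif7* (0.72, adjusted p = 0.0482), *Prkaca* (-0.41, adjusted p = 0.0352), *Ccnd1* (0.78, adjusted p = 0.0195) and *Pde10a* (0.54, adjusted p = 0.0249).

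Genes for making, releasing and carrying hedgehog ligands gave 1 higher and 2 lower of 8 tested, with a median log2 fold change of 0.08. Over all genes 12.0% were higher and 11% lower. *Hhat*, which adds palmitate to the ligand, was higher at 0.70 (SE 0.23, adjusted p = 0.0336, edgeR), from a control median of 2.77 to a knockout median of 3.9 CPM. It did not pass without control replicates 6 and 8 (0.53, adjusted p = 0.102) or without control replicates 1 and 2 (0.68, adjusted p = 0.0686). *Hhatl*, its muscle-expressed relative, was lower by -0.78 (SE 0.21, adjusted p = 0.0126, edgeR), from 113 to 65.5 CPM at the median, and -0.59 (adjusted p = 0.0887) without control replicates 6 and 8. *Scube3*, a secreted carrier, was lower by -1.75 (SE 0.53, adjusted p = 0.0209, edgeR), but its medians were 4.50 CPM in control and 4.51 CPM in knockout, and control replicates 1 and 2, at 52.0 and 54.5 CPM, lay apart from the other 6 controls at 2.28 to 12.5 CPM. Leaving out control replicates 6 and 8 gave -2.11 (adjusted p = 0.0140), but leaving out control replicates 1 and 2 gave 0.03 (SE 0.32, adjusted p = 0.960, edgeR), so the call rests on those 2 libraries. They also held the most *Krt5*, a keratin of basal epithelium, at 76.9 and 61.5 CPM against 0 to 8.09 CPM in the other controls. Knockout replicate 11 held *Krt5* at 30.3 CPM but *Scube3* at 4.11 CPM. The part of epithelium in *Scube3* was not tested beyond this. *Scube1* (0.21), *Scube2* (0.59), *Disp1* (0.32) and *Disp2* (-1.46) did not pass with all libraries. *Dhh*, the ligand of Schwann cells, had -0.05 (SE 0.97). *Shh* was not tested. It had 653 and 540 counts in control replicates 1 and 2 and at most 4 counts in any other library. Those 2 controls are the ones high in *Krt5*, but knockout replicate 11, with *Krt5* at 30.3 CPM, had no *Shh* count.

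Receptors and coreceptors of hedgehog ligands gave 2 higher and 0 lower of 4 tested, with a median log2 fold change of 0.65. Over all genes 12.0% were higher and 11% lower. The coreceptor *Gas1* was higher at 0.83 (SE 0.23, adjusted p = 0.0145, edgeR), with means of 40.3 ± 11.4 CPM in control (SD, n = 8) and 71.4 ± 29.6 CPM in knockout (SD, n = 12). The coreceptor *Boc* was higher at 0.68 (SE 0.21, adjusted p = 0.0259, edgeR), and 8 of 12 knockout libraries lay above all controls. *Cdon*, the third coreceptor, had 0.62 (adjusted p = 0.255). *Gpc3* had -0.78 (adjusted p = 0.179). Without control replicates 6 and 8 *Gas1* (0.75, adjusted p = 0.0628) and *Boc* (0.43, adjusted p = 0.0683) no longer passed.

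Among 22 genes that carry the signal from Smo to the Gli proteins, none was higher and 4 were lower, with a median of -0.09, beside 12.0% higher and 11% lower over all genes. *Ift172*, a component of the transport system within the cilium in which Smo acts, was lower by -0.39 (SE 0.08, adjusted p = 0.00215, edgeR). Its 8 control libraries lay between 43.1 and 55.6 CPM and its 12 knockout libraries between 27.3 and 42.9 CPM, without overlap. How many of all genes tested were without overlap is not given here. Without control replicates 6 and 8 *Ift172* was -0.37 (adjusted p = 0.0136). *Spop* (-0.30), *Cul3* (-0.41) and *Btrc* (-0.27), which belong to the ubiquitin ligases that degrade or process Gli proteins, were lower with adjusted p of 0.0439, 0.0206 and 0.0276. They were -0.18, -0.33 and -0.28 without control replicates 6 and 8, with adjusted p of 0.188, 0.0945 and 0.0681. *Sufu* (0.27, adjusted p = 0.0782) and *Kif7* (0.53, adjusted p = 0.110), the negative regulators that hold Gli proteins, did not pass with all libraries.

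Of 9 genes often named as Gli targets, 2 were higher and 0 lower, with a median of 0.13, a share close to the 23.0% of all genes that passed. *Foxc2* was higher at 1.34 (SE 0.33, adjusted p = 0.00725, edgeR), with medians of 3.67 CPM in control and 7.49 CPM in knockout, and at 1.04 (adjusted p = 0.0280) without control replicates 6 and 8. *Ccnd2*, a cyclin, was higher at 0.64 (SE 0.23, adjusted p = 0.0495, edgeR) and passed in 5 of 20 leave-one-out fits, with 0.45 (adjusted p = 0.120) without control replicates 6 and 8. With the osteoclast score in the fit *Foxc2* was -0.05 (SE 0.34). These lists are known from several tissues, and *Foxc2* and *Ccnd2* also respond to other signals.

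On the PTHrP side, the other ligands and receptor were close to absent. *Pth* had no count in any library, *Pth2* had 6 and *Pth2r* had 12 counts in all 20 libraries together. Of 26 genes below the receptor, 2 were higher and 6 lower, with a median of 0.03, beside 12.0% higher and 11% lower over all genes. *Adcy3*, an adenylyl cyclase, was higher at 1.41 (SE 0.38, adjusted p = 0.0122, edgeR), with medians of 11.7 CPM in control and 28.8 CPM in knockout, but at -0.42 (SE 0.33) with the osteoclast score in the fit. *Gna11*, a G protein subunit, was higher at 0.19 (SE 0.07, adjusted p = 0.0382, edgeR). *Adcy9* (-0.60), *Pde4d* (-0.60), *Prkar2a* (-0.39), *Mef2c* (-0.36), *Mef2d* (-0.32) and *Hdac4* (-0.31) were lower, with adjusted p from 0.0129 to 0.0492. The last 3 encode the transcription factors and the histone deacetylase through which PTHrP signalling is known to restrain hypertrophy, and *Mef2c* and *Mef2d* are also muscle genes. None of the 26 passed without control replicates 6 and 8, in a fit where 1703 of 16551 genes passed.

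Genes of hypertrophic chondrocytes gave 3 higher and 2 lower of 13, with a median of 0.94. Over all genes 12.0% were higher and 11% lower. *Mmp13*, a collagenase of hypertrophic chondrocytes and osteoblasts, was higher at 2.62 (SE 0.53, adjusted p = 0.00254, edgeR), with 11 of 12 knockout libraries above all controls, and at 2.31 (adjusted p = 0.0147) without control replicates 6 and 8. With the osteoclast score in the fit it was -0.14 (SE 0.36). *Sp7* (1.40, adjusted p = 0.0185) and *Dlx5* (0.87, adjusted p = 0.0454), transcription factors shared with osteoblasts, were higher. *Mef2c* and *Vegfa* (-0.48, adjusted p = 0.0185) were lower. In the fit without control replicates 6 and 8, *Sp7* (1.09), *Dlx5* (0.55), *Mef2c* (-0.28) and *Vegfa* (-0.46) had adjusted p from 0.0650 to 0.128. *Col10a1*, the collagen that defines hypertrophic cartilage, had a log2 fold change of -0.37 (SE 0.90, adjusted p = 0.801). It ran from 0 through 53.1 to 317 CPM in control and from 1.52 through 18.9 to 231 CPM in knockout, so the groups overlapped fully. Of this list, 4 genes (*Runx2*, *Ibsp*, *Alpl* and *Sp7*) also stand in the osteoblast and osteocyte list.

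**Figure D4:**
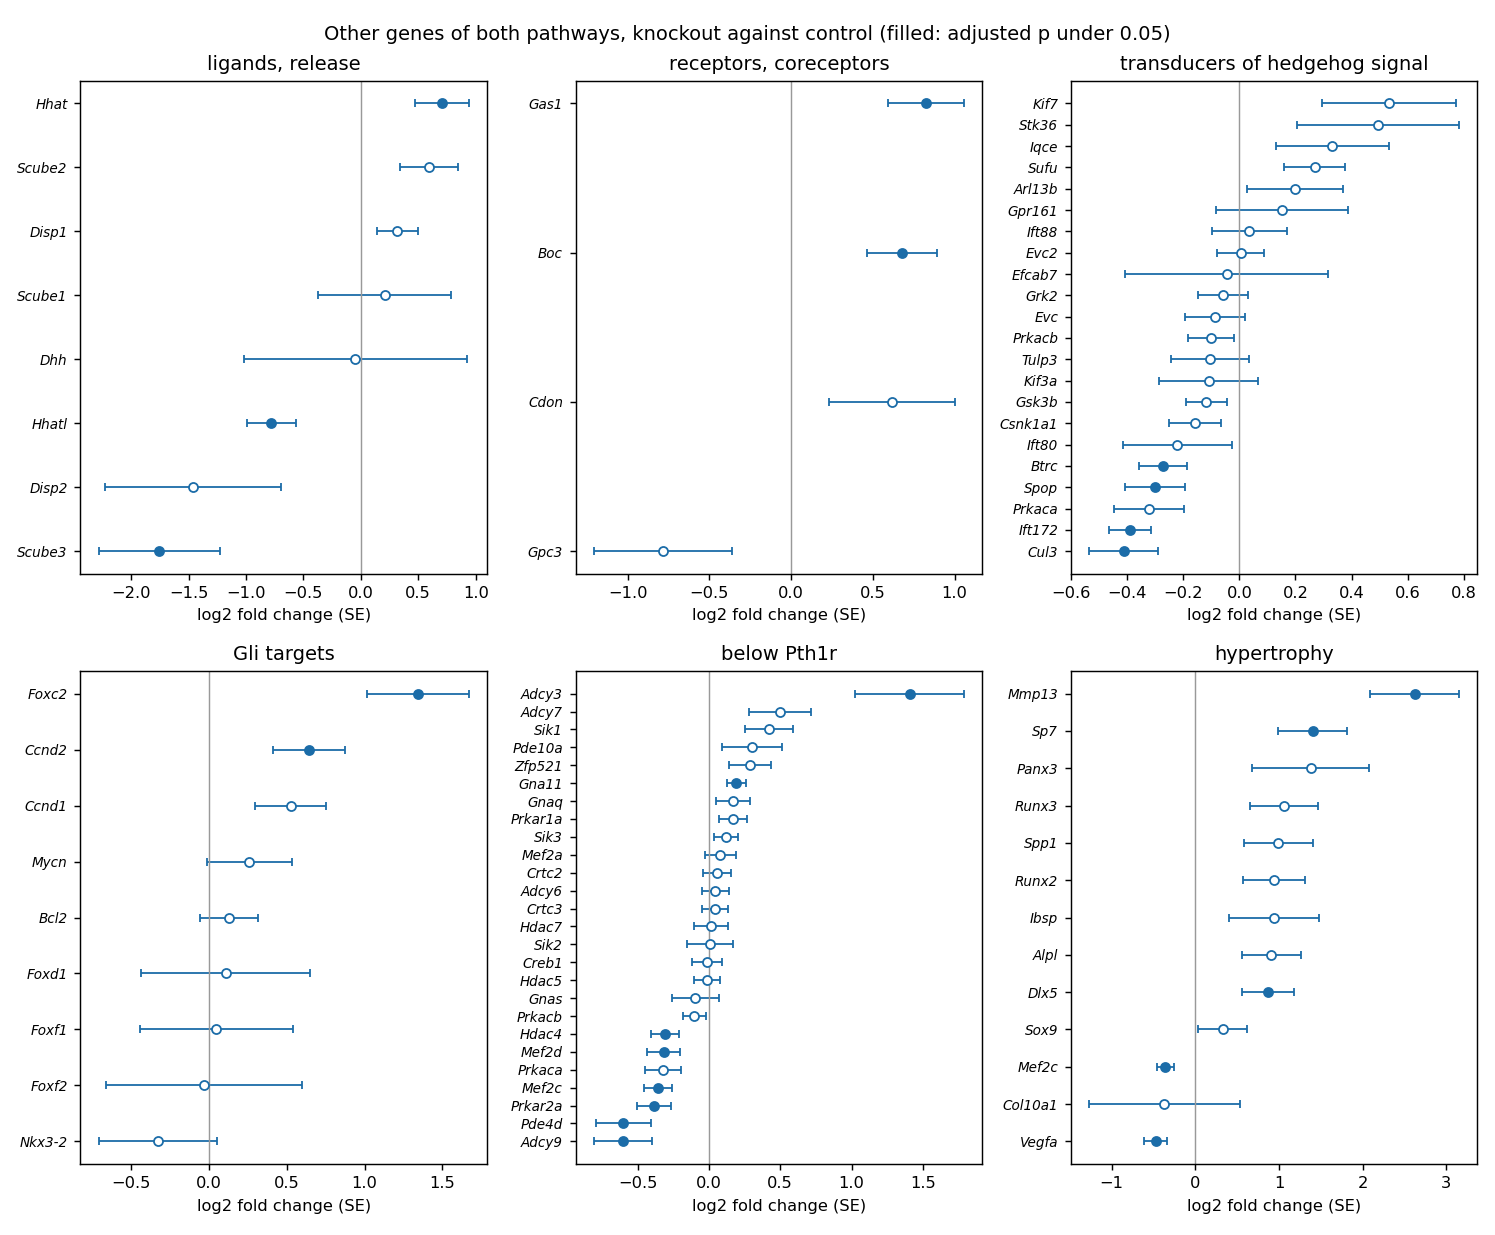
Log2 fold change (point) and standard error (bar) of the tested genes of each list other than the 9 members, filled where adjusted p was under 0.05. Receptors and coreceptors include genes on both sides of 0, transducers of the hedgehog signal lie between -0.41 and 0.53, and *Mmp13* at 2.62 is the furthest from 0 in the panels.

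To test whether the ligands and their targets varied together, 10 pairs fixed by their place in the loop were correlated across libraries within each group, on log2 CPM. P-values are from permutations and adjusted over the 20 relations. In knockout, *Ihh* rose with *Gli1* (Pearson r = 0.86, adjusted p = 0.0060; Spearman rho = 0.80, adjusted p = 0.0279; permutation, n = 12). Leaving out knockout replicates 8 and 11, which lay farthest from the *Ihh* median, r was 0.82 (permutation p = 0.00345, adjusted p = 0.0690). *Ihh* also rose with *Ptch1* (r = 0.78, adjusted p = 0.0143, and rho = 0.69, adjusted p = 0.109, permutation, n = 12). Without those 2 libraries r was 0.57 (adjusted p = 0.568, permutation) and did not pass. *Ihh* with *Col10a1* had r = 0.79 (adjusted p = 0.0132) and rho = 0.81 (adjusted p = 0.0279), with r = 0.64 (adjusted p = 0.50) without the same 2. *Gli1* with *Ptch1* had r = 0.70 (adjusted p = 0.0351) and rho = 0.51 (adjusted p = 0.173), and r fell to 0.36 without replicates 5 and 8. Such relations were not particular to ligand and target. Over all 20 libraries with group means subtracted, *Ihh* had r = 0.76 with *Gli1* and 0.77 with *Ptch1*. It had 0.74 with *Gli2*, 0.68 with *Smo*, 0.60 with *Pth1r*, 0.59 with *Gli3*, 0.41 with *Hhip* and -0.12 with *Pthlh*. *Pth1r* with *Smo* had 0.86.

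*Ihh* with *Hhip* (r = 0.21, rho = 0.13), *Gli1* with *Hhip* (r = 0.21, rho = 0.13), *Ihh* with *Pthlh* (r = -0.38, rho = -0.39), *Ihh* with *Pth1r* (r = 0.50, rho = 0.50) and *Pthlh* with *Pth1r* (r = 0.03, rho = 0.18) did not pass in knockout, with adjusted p from 0.146 to 0.939 (permutation). *Pth1r* with *Col10a1* had r = 0.65 (adjusted p = 0.0441) and rho = 0.58 (adjusted p = 0.148), and r was 0.29 without knockout replicates 4 and 5.

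In control, replicates 6 and 8 formed a cluster of their own, low in *Gli1*, *Ptch1*, *Pth1r* and *Col10a1*. Over all 8 controls, 3 of the 10 relations passed by Pearson's r. These were *Ihh* with *Col10a1* (r = 0.91, adjusted p = 0.0107; rho = 0.74, adjusted p = 0.148; exact permutation), *Gli1* with *Ptch1* (r = 0.93, adjusted p = 0.0165; rho = 0.81, adjusted p = 0.109; exact permutation) and *Pth1r* with *Col10a1* (r = 0.90, adjusted p = 0.0243; rho = 0.74, adjusted p = 0.148; exact permutation). *Ihh* with *Gli1* had r = 0.75 (adjusted p = 0.0525, exact permutation; rho = 0.33). Within the other 6 libraries, a choice made after the values were seen, none of the 10 passed when adjusted over the 10. With so few libraries this cannot show that a relation is absent. *Pth1r* with *Col10a1* had r = -0.07 there (exact permutation p = 0.943, rho = 0.37). *Ihh* with *Gli1* had r = -0.42 (exact permutation p = 0.431, rho = -0.60) and *Ihh* with *Ptch1* r = 0.30 (exact permutation p = 0.550, rho = 0.20). *Ihh* with *Col10a1* had r = 0.76 (exact permutation p = 0.0597, rho = 0.37) and *Gli1* with *Ptch1* r = 0.56 (exact permutation p = 0.253, rho = 0.60). *Pthlh* and *Pth1r* ran in opposite directions, with r = -0.89 (exact permutation p = 0.0194, adjusted p = 0.194) and rho = -0.89. The other pairs had r between -0.24 and 0.68. Whether the groups differ in these relations was not tested.

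**Figure D5:**
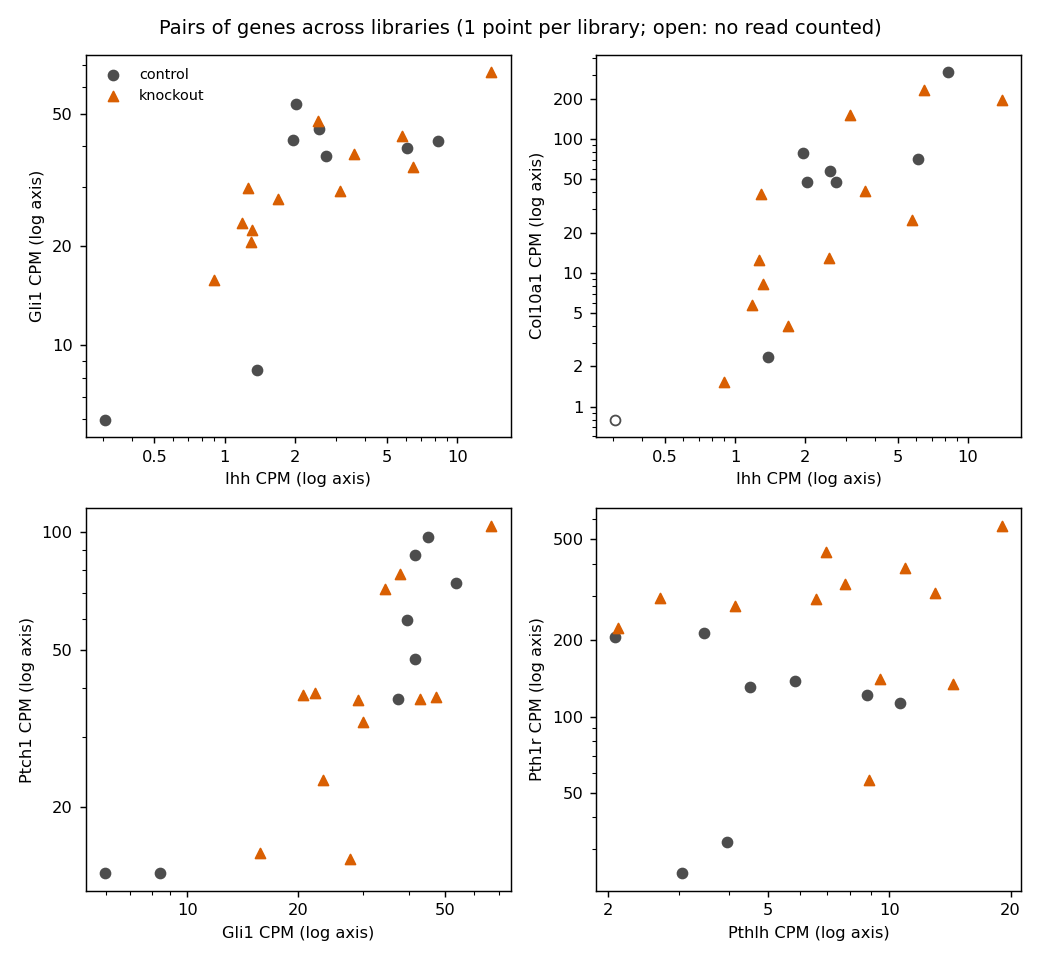
Pairs of genes by library in CPM on log axes (circles, 8 control; triangles, 12 knockout). *Gli1* rises with *Ihh* along the knockout libraries, 2 control libraries lie apart at low *Gli1*, and the open circle is control replicate 8, which had no *Col10a1* count and is drawn at the foot of its axis.

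As a description of what else followed each gene, the 3 genes with the most similar pattern were found among 14588 genes with a mean of at least 1 CPM. Likeness was Pearson's r of log2 CPM over 20 libraries after each group mean was subtracted, and all libraries share the same depth and tissue composition as sources of likeness. *Pth1r* was followed most closely by *Ptgis* (0.97), *Alpl* (0.96) and *Ibsp* (0.96), the last 2 being osteoblast markers. *Smo* was followed by *Ptk7* (0.96), *B3gnt9* (0.96) and *Mxra8* (0.95). *Ptch1* was followed by *Col9a2* (0.92), a cartilage collagen, *Cybrd1* (0.92) and *Crispld1* (0.91), and *Gli1* by *Col27a1* (0.94), another cartilage collagen, *Tpbg* (0.94) and *Sertad4* (0.93).

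The genes most like *Ihh* were *Foxd2* (0.88), *Tnfrsf11b* (0.87), which encodes the osteoclast inhibitor osteoprotegerin, and *Ldlrad3* (0.87). *Pthlh* went with *Igfbp4* (0.90) and *Igf1* (0.87), a growth factor and one of its binding proteins, and with *Ctbp2* (0.84). *Gli2* went with *Aldh1a3* (0.92), *Vit* (0.92) and *Robo1* (0.90), *Gli3* with *Dse* (0.93), *Nf1* (0.92) and *Prdx4* (0.92), and *Hhip* with *Camkk1* (0.90), *Pam* (0.89) and *Ypel4* (0.86). No gene stands among the nearest 3 of more than 1 member.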

How the data were processed

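RNA from condylar heads (8 control and 12 *Loxl2* knockout libraries) was sequenced by the authors as paired-end reads. Per the labels, reads were aligned to mm10 and counted per gene with featureCounts, and the deposited table holds these raw counts without normalization. The aligner, its annotation and the use of strand are not given in the sources used here. Sample titles gave the groups and the replicate numbers. Gene positions and exon overlaps came from GENCODE M21 (GRCm38), and promoters from RefSeq GRCm38.p6. Counts were filtered by expression in the groups, scaled by the trimmed mean of M-values and tested with edgeR 4.0.16 (quasi-likelihood F-test, two-sided, no covariate) in R 4.3.3, with Benjamini-Hochberg adjustment over 15984 genes. The authors used DESeq2, which was run as an alternative (version 1.42.0). Log2 CPM used a prior count of 2. The 9 genes and the lists were chosen with earlier results of these data known. Named genes were the 9 members, list genes past the threshold or encoding ligands or receptors, *Loxl2*, and the 3 genes most like each member. One gene of the pathway lists is not reported here and was left out of their counts. Marker lists are given by their levels rather than by their genes. No 2 libraries held the same counts (chi-square of at least 32.9 per degree of freedom over 190 pairs). The study's methods give as many mice as libraries in each group (8 and 12), of both sexes, but the labels name no animal, sex or batch, so neither sex nor batch entered a fit, and p-values measure the spread between these libraries. The scripts were tested on simulated data.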

Additional observations from a re-analysis of the deposited data

Results flagged for a closer look

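Of 52 sets of 8 control values examined for a single library far from the other 7, 5 held one, and chance flags about 1 in 20 such sets. Control replicate 8 was lowest for *Hhat*, at 0.766 CPM against 2.49 CPM in the next library, and highest for *Spop*, at 395 against 255 CPM, and for *Prkar2a*, at 259 against 192 CPM. All of these are named in the comparisons of pathway genes. Control replicate 7 was highest for *Col10a1*, at 317 CPM against 79.2 CPM in the next library. Control replicate 1 was highest for *Disp2*, at 17.3 CPM against 5.53 CPM. None of the 9 members had a control library this far from the rest, and for *Smo*, *Gli1* and *Pth1r* the 2 low control libraries lay side by side. The knockout group, with more than 10 libraries, was not examined in this way.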

How the results depend on the processing

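The count of members past the threshold was 2 with all libraries, *Smo* and *Pth1r*. It was 1 with library totals alone and with no filter (*Pth1r*). The 1 member was *Pthlh* with the replicate block and with the 16 libraries numbered 1 to 8. With the osteoblast and osteocyte score it was *Ptch1*, lower in knockout. The count was 0 with the osteoclast score, with the muscle score and without control replicates 6 and 8. It was 3 with the DESeq2 Wald test (*Smo*, *Gli3* and *Pth1r*) and with the chondrocyte score (*Ptch1*, *Smo* and *Pth1r*). Leaving out 1 library at a time gave 0 to 3 members, 2551 to 4181 genes and 12 to 28 other pathway genes (12 without control replicate 8 and 15 without control replicate 3), against 3673 and 23 with all libraries. Genes called were 3037 with library totals alone, 2987 with no filter, 3280 with the 16 libraries unpaired and 4219 with the DESeq2 Wald test. They were 1786 with the replicate block and 1703 without control replicates 6 and 8. With the scores they were 2620 (chondrocyte), 0 (osteoclast), 263 (osteoblast and osteocyte) and 1084 (muscle). Other pathway genes called were 13 with library totals alone (and with the 16 libraries unpaired), 15 with no filter, 5 with the replicate block, 14 with the chondrocyte, 0 with the osteoclast, 1 with the osteoblast and osteocyte and 3 with the muscle score, and 5 without control replicates 6 and 8. Library totals alone raised the median of all genes from -0.02 to 0.12 and the share of higher calls from 52.2% to 72.0%. Without control replicates 1 and 2, 3944 genes, 3 members and 24 other pathway genes passed. Leaving out either pair of controls, and the fits for pathway genes, were chosen after seeing the data.

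Signs turned as follows. *Ihh* was -0.24 with the replicate block, -0.54, -0.17, -1.09 and -0.0016 with the chondrocyte, osteoclast, osteoblast and osteocyte, and muscle scores, and -0.15 without control replicates 6 and 8. *Gli2* was -0.018, -0.20, -0.32 and -0.071 with the same 4 scores and -0.029 without those controls. With the osteoclast score *Smo* was -0.078, *Gli3* -0.051, *Hhip* 0.17 and *Pthlh* -0.17, and with the osteoblast and osteocyte score *Pth1r* was -0.087. *Gli1* was 0.045 with library totals alone, and 0.17 as a difference in mean log2 CPM. Without control replicates 1 and 2 *Ptch1* was 0.012, *Gli1* 0.17 and *Hhip* 0.067, and *Scube3* was 0.03. With the osteoclast score *Cul3* was 0.014, *Prkar2a* 0.028, *Foxc2* -0.05, *Adcy3* -0.42, *Mmp13* -0.14, *Sp7* -0.07 and *Dlx5* -0.13. With the osteoblast and osteocyte score *Sp7* was -0.06 and *Dlx5* -0.02. *Sp7* is itself 1 of the 12 genes of that score, so part of its fall there was built in. The chondrocyte list was -0.041 without control replicates 6 and 8. Leaving out 1 library gave -0.19 to 0.090 for *Gli1* and -0.26 to 0.54 for *Ihh*. Without the 2 libraries farthest from the median, r was -0.18 and -0.088 for *Ihh* with *Hhip* in control and knockout, -0.041 for *Pthlh* with *Pth1r* and -0.070 for *Pth1r* with *Col10a1* in control. Without control replicates 6 and 8, r in control was -0.42 for *Ihh* with *Gli1*, -0.23 with *Hhip* and -0.24 with *Pth1r*, -0.89 for *Pthlh* with *Pth1r* and -0.070 for *Pth1r* with *Col10a1*. The cause of these turns was not tested.

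Control and knockout libraries share replicate numbers 1 to 8, but the numbers did not pair them. Deviations of same-numbered libraries correlated between -0.39 and 0.19, and 1 of 8 controls correlated best with its own number. With the replicate block *Pthlh* passed (1.01, adjusted p = 0.0390, edgeR), and *Smo* (0.57, adjusted p = 0.181) and *Pth1r* (1.22, adjusted p = 0.237) did not. Counts of *Ihh* were small, at 4 to 191 per library.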
